A study of Mus musculus with 8 samples.

Results

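The cartilage-type matrix genes are those that cartilage uses to build its extracellular matrix and that the embryonic heart also uses in its cushions and valves. The 10 genes described here were chosen by name from the deposited table of 33495 genes. They are the collagen chains Col2a1, Col9a1, Col11a1 and Col11a2, the proteoglycan aggrecan (Acan), the link protein Hapln1, the matrilin Matn4 and the transcription factors Sox5, Sox6 and Sox9. Where a symbol had several rows, the row with most summed raw counts was to be taken, and 0 of the 10 symbols had several. The group was put together with results of these samples in view, including the fall of Col2a1, so the differences between mutant and wild type below are a description of these libraries and not a separate test of the group.

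RNA sequencing counted transcripts in heart outflow tracts, the tube through which the ventricles empty into the great arteries, of mice on a CD-1 strain background. In the 4 mutant libraries Mef2c, a transcription factor of muscle and heart development, was deleted conditionally in the anterior heart field (AHF), a progenitor population of the outflow tract and right ventricle. The other 4 libraries were wild type. The labels name neither the Cre driver nor the stage, nor whether wild-type animals carried Cre or floxed alleles, nor how many embryos or litters went into a library. A p-value here therefore measures only the spread between these samples, which may be technical. Each of 2 sequencing lanes held 2 libraries of each group, replicates 1 and 2 on lane 1 and replicates 3 and 4 on lane 2.

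In cartilage, collagen II forms fibrils together with collagen XI, and collagen IX decorates their surface. Aggrecan binds hyaluronan through link proteins such as HAPLN1 and gives the tissue its swelling pressure. SOX9 is the main activator of these genes in chondrocytes, and SOX5 and SOX6 act with it. In the mouse heart Sox9 and Hapln1 are known in cushion mesenchyme, where versican rather than aggrecan is the abundant proteoglycan.

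The SOX proteins bind DNA through an HMG box. The stretch that codes for the start of this box is shown to set the 3 SOX members apart by sequence, because counts of related genes can share reads. It is read from GENCODE transcripts on the GRCm38 build, 120 bases for 40 residues across 2 exons of each gene, written 5′ to 3′ on the coding strand, with bases that differ from Sox9 in capitals. Sox5 differed from Sox9 at 45 bases and 19 residues, Sox6 differed from Sox9 at 51 bases and 19 residues, and Sox5 and Sox6 differed from each other at 19 bases and 1 residue. No run of 50 bases was shared between the annotated transcripts of any of the 45 pairs of the 10 genes.
Sox9 (chr11:112782903-112783815, plus strand): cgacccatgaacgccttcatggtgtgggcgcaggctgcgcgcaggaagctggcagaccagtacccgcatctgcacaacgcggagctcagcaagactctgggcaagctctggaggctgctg
Sox5 (chr6:143835393-143841273, minus strand): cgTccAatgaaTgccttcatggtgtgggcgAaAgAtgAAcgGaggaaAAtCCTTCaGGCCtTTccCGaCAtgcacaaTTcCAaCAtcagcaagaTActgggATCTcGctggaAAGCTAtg
Sox6 (chr7:115486745-115489762, minus strand): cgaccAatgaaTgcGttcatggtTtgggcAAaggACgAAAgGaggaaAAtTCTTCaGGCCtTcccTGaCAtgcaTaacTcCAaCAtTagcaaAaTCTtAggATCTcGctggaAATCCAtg

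Collagen II is made in a long and a short form. The long form, known from embryonic tissue before cartilage matures, keeps an exon that codes for a cysteine-rich domain of the amino-terminal propeptide. That exon is shown because a count per gene adds both forms together. It is exon 2 of 54 in the coding transcript that keeps it, 204 bases, and is absent from the other of the 2 long coding transcripts.
Col2a1 exon 2 (GRCm38, chr15:98000403-98000606, minus strand): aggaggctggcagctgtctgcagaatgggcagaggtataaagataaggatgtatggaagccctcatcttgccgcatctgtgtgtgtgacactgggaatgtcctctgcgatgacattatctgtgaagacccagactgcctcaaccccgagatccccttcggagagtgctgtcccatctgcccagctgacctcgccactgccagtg
In the authors' deposited table, Col2a1 had a score of 61.3 in a test of exon counts, rank 101 of the 605 genes with a score above 0. The exon that changed most stood at -2.93 as a log2 ratio of mutant to wild type. Col11a1 had a score of 40.7, rank 183, with a log2 ratio of 1.54. The other 8 members had a score of 0, with a log2 ratio of 0 for all but Sox5, which had 1.46. The table does not say which exon changed, so the result cannot be placed on exon 2 or elsewhere.

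Total counts ran from 7138732 to 11012246 per library, and 3 reads, taken as the floor, corresponded to 0.278 to 0.413 CPM (counts scaled to library size after TMM). Mef2c, the deleted gene, stood at 0.32 on the log2 scale, mutant over wild type, for its whole count (edgeR, adjusted p = 0.212). It ranked 1 in the authors' deposited table by the exon score, and the log2 ratio of the exon that changed most was -3.30. The gene-level count includes exons outside the deleted part and so does not check the labels. Cardiomyocyte genes (Myh6, Ttn and others, 8 tested) defined the tissue in every library, with a summed level of 25922 to 33119 CPM in mutant and 31682 to 42951 CPM in wild type. Genes of chamber myocardium, which neighbours the outflow tract, summed to 1882 CPM in wild-type library 2 and 1129 CPM in mutant library 4, each the highest of its group, against 934 to 1437 CPM in the other wild-type and 346 to 451 CPM in the other mutant libraries. Wild-type library 4 stood apart by genes of pharyngeal endoderm and epithelium, which summed to 156 CPM there and to 48.8 to 62.2 CPM in the other 7 libraries. In that library Cdh1 had 271 reads, Epcam 113, Foxe1 85, Nkx2-1 73, Shh 68, Foxa1 61 and Pax9 32, where the others had at most 27, 5, 0, 11, 1, 1 and 10. In bulk tissue, fewer cells of a type and less RNA per cell cannot be told apart.

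Of the 10 genes, 8 had enough reads to be tested, and Acan and Matn4 did not. Col2a1 fell, with a wild-type level 3.33-fold that of mutant, and the 3 SOX factors, Hapln1, Col11a1 and Col11a2 had fitted values above 0 that did not pass. In the quasi-likelihood fit of edgeR, adjusted by Benjamini-Hochberg over 14757 genes, 1 of the 8 was called lower, where 0.942% of all tested genes were, and 0 were called higher, where 0.562% were. Since the group was chosen with these calls known, nothing is read from those shares. Values above 0 were found for 6 of the 8 and values below 0 for 2, with a median log2 fold change of 0.33 against -0.006 for all tested genes. At an unadjusted p under 0.05, 2 members were higher, Hapln1 and Sox6, where 5.27% of all tested genes were. DESeq2 called 1 member higher, Hapln1, and limma-voom called 0. In either direction DESeq2 called 2.45% of its genes and limma-voom 1.44%, and 11.4% of tested genes had an unadjusted p under 0.05 by edgeR.

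**Figure D1:**
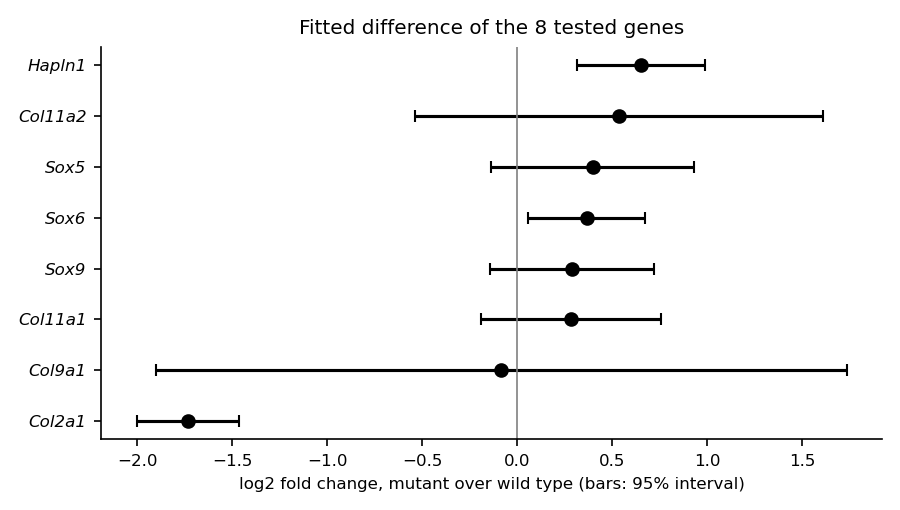
Fitted log2 fold changes, mutant over wild type, of the 8 tested genes, with bars for the 95% interval from edgeR. Col2a1 lies at -1.74 with an interval of -2.004 to -1.467, while 6 genes lie above 0 and the interval of Col9a1 runs from -1.90 to 1.73.

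Sox9 (ENSMUSG00000000567, chromosome 11, 112643538 to 112649074, plus strand, mm9) encodes the chondrogenic master regulator. The mutant libraries, in the order of replicates 1 to 4, stood at 244.8, 261.9, 260.3 and 194.9 CPM, and the wild-type libraries at 233.9, 116.7, 229.8 and 207.9 CPM. Wild-type library 2 stood well under the other 7, which overlapped. The means were 240.5 CPM ± 31.3 and 197.1 CPM ± 54.8 (SD, n = 4 each). The log2 fold change of 0.29 ± 0.196 (SE) did not pass (adjusted p = 0.653, edgeR), with a 95% interval of -0.15 to 0.72.

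Sox5 (ENSMUSG00000041540, chromosome 6, 143776945 to 144730497, minus strand) and Sox6 (ENSMUSG00000051910, chromosome 7, 122614858 to 123174561, minus strand) encode the SOXD partners of SOX9. Sox5 was at 60.96, 60.0, 67.5 and 49.0 CPM in the mutant libraries and at 53.7, 22.5, 55.6 and 48.4 CPM in the wild-type libraries. Sox6 was at 144.5, 149.0, 143.1 and 107.4 CPM in mutant and at 119.99, 77.8, 114.6 and 109.3 CPM in wild type. As for Sox9, wild-type library 2 was the lowest for both genes, and the groups overlapped. The log2 fold change of Sox5 was 0.40 ± 0.240 (SE; interval -0.14 to 0.93, adjusted p = 0.604, edgeR) and that of Sox6 was 0.37 ± 0.141 (SE; interval 0.06 to 0.67, adjusted p = 0.339, edgeR). Sox5 spans several other annotated genes with few reads, so a small part of its reads cannot be assigned with certainty.

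Col2a1 (ENSMUSG00000022483, chromosome 15, 97805402 to 97835126, minus strand) encodes the chain of collagen II, the main fibril collagen of cartilage. The raw count, in the same order of replicates, was 969, 806, 1130 and 890 in mutant and 3741, 2616, 1938 and 2866 in wild type. In CPM these were 107.6, 102.5, 110.9 and 88.9 in mutant and 346.9, 359.7, 266.6 and 391.6 in wild type. Every mutant library lay under every wild-type library, with a wide gap between 110.9 and 266.6 CPM. No overlap with lower mutant values was found for 3.27% of all tested genes, and with higher mutant values for 3.44%. Col2a1 was the only one of the 8 tested members without overlap between the groups.

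The mean of Col2a1 was 102.5 CPM ± 9.69 in mutant and 341.2 CPM ± 53.1 in wild type (SD, n = 4 each). The log2 fold change was -1.74 ± 0.124 (SE; adjusted p = 2.37e-05, edgeR), the third smallest p of the table, and the fitted level in wild type was 3.33 times the mutant level (95% interval 2.76 to 4.01). Its spread was small in both groups, with a coefficient of variation of 9.46% in mutant and 15.6% in wild type. Lane 1 alone gave -1.75 and lane 2 alone -1.73. Without wild-type library 2 and mutant library 4, the highest of each group in chamber genes, the value was -1.65. Mutant library 4 had the lowest Col2a1 of the 8 libraries. The part of chamber tissue in the Col2a1 values was not tested. Wild-type library 4, with its endoderm genes, had the highest Col2a1, and without it the value was -1.66 (adjusted p = 5.80e-05, edgeR).

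**Figure D2:**
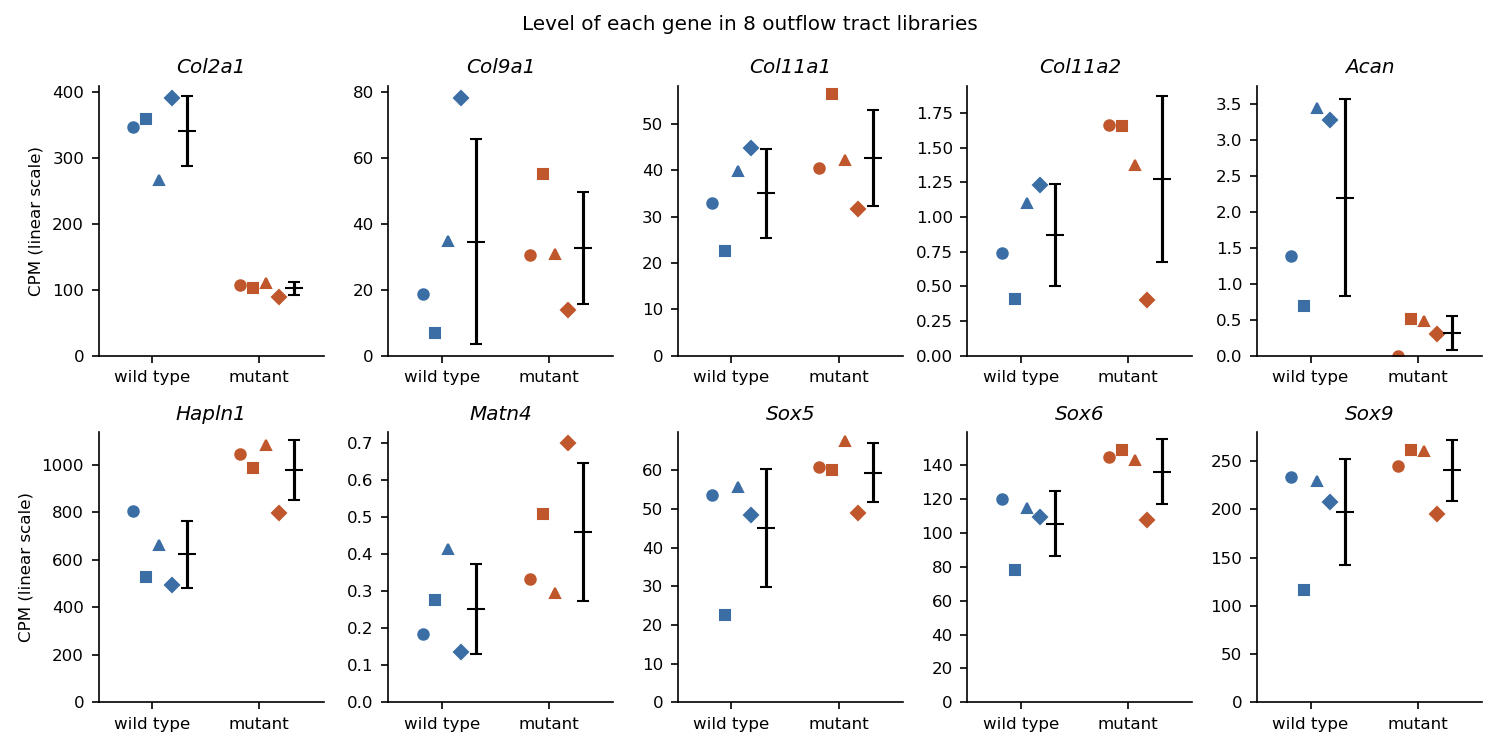
CPM of each of the 10 genes on its own linear axis from 0, with 1 point per library and a bar for the mean and SD of each group of 4. The mutant points of Col2a1 lie between 88.9 and 110.9 CPM, all under the wild-type points at 266.6 to 391.6 CPM, and those of Acan also lie under wild type. The groups overlap for the other genes.

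Col9a1 (ENSMUSG00000026147, chromosome 1, 24184449 to 24259523, plus strand) encodes a chain of collagen IX, which coats collagen II fibrils. It varied most among the members with many reads, at 30.6, 55.3, 31.0 and 13.8 CPM in mutant and at 18.9, 6.87, 34.8 and 78.2 CPM in wild type. The highest library was 4.01 times the lowest in mutant and 11.4 times in wild type, and both extremes of all 8 were wild type. The log2 fold change was -0.09 ± 0.755 (SE; adjusted p = 0.983, edgeR) with an interval of -1.90 to 1.73, so these libraries do not settle its direction. Wild-type library 4 was the highest, and without it the value was 0.69 (adjusted p = 0.720, edgeR). Lane 1 alone gave 1.69 and lane 2 alone -1.34, and the test of group by lane did not pass (adjusted p = 0.281, edgeR).

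Col11a1 (ENSMUSG00000027966, chromosome 3, 113733458 to 113923636, plus strand) and Col11a2 (ENSMUSG00000024330, chromosome 17, 34176382 to 34203630, plus strand) encode chains of collagen XI, which sits in the core of the fibril and limits its width. Col11a1 was at 40.5, 56.4, 42.1 and 31.6 CPM in mutant and at 33.0, 22.5, 39.9 and 44.7 CPM in wild type. Its groups overlapped, and the log2 fold change of 0.28 ± 0.216 (SE) did not pass (adjusted p = 0.694, edgeR). Lane 1 alone gave 0.79 and lane 2 alone -0.21, and the difference between lanes had an unadjusted p of 0.00815 and an adjusted p of 0.158 by edgeR. Col11a2 had few reads, with counts of 15, 13, 14 and 4 in mutant and 8, 3, 8 and 9 in wild type. Its log2 fold change of 0.53 ± 0.495 (SE) did not pass (adjusted p = 0.757, edgeR), and at this depth its interval spans -0.54 to 1.61. Of the 8 tested members, Col9a1 and Col11a1 were the 2 whose group difference differed between lanes at an unadjusted p under 0.05. The share of all tested genes at that p is not given here, so nothing is read from this count. After adjustment, 1 gene of the whole table was called in the test of group by lane, and it was neither of these.

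Hapln1 (ENSMUSG00000021613, chromosome 13, 89680394 to 89751242, plus strand) encodes the link protein that fixes aggrecan and versican to hyaluronan. It was the most abundant member, at 1044, 987.8, 1083 and 798.4 CPM in mutant and 804.1, 528.6, 663.7 and 495.5 CPM in wild type. The groups overlapped by 1 pair of libraries, since mutant library 4 stood just under wild-type library 1. The means were 978.1 CPM ± 125.9 and 623.0 CPM ± 141.0 (SD, n = 4 each). The log2 fold change of 0.65 ± 0.155 (SE; interval 0.31 to 0.99) missed the threshold (adjusted p = 0.0654, edgeR), while the lanes gave 0.60 and 0.69. The gene did pass with DESeq2 (adjusted p = 0.00340), with library size alone as scaling (adjusted p = 0.0446, edgeR), with no filter on low counts (adjusted p = 0.0402, edgeR), without mutant library 4 (adjusted p = 0.0376, edgeR) and without wild-type library 1 (adjusted p = 0.0294, edgeR). Over 19 alternatives its value ran from 0.52 to 0.79 and its adjusted p from 0.00340 to 0.315.

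Acan (ENSMUSG00000030607, chromosome 7, 86198369 to 86259985, plus strand) encodes aggrecan. It had 0, 4, 5 and 3 reads in the mutant replicates 1 to 4 and 15, 5, 25 and 24 reads in the wild-type replicates. In CPM it was at 0, 0.509, 0.491 and 0.300 in mutant and at 1.39, 0.687, 3.44 and 3.28 in wild type, so all mutant libraries lay under all wild-type libraries, although mutant libraries 1 and 4 were at or under the floor of 3 reads and wild-type library 2 was close to the mutants. Over the group, 12 reads stood against 69, and the scaled level in wild type was 6.53 times the mutant level, with an exact 95% interval of 3.51 to 13.2 that covers counting error only. Without wild-type library 4 the 45 remaining wild-type reads gave 5.49 times the mutant level (2.86 to 11.4). With so few reads Acan was not among the genes tested. With no filter on low counts it had a log2 value of -2.68 ± 0.638 (SE; adjusted p = 0.0385, edgeR) and with DESeq2 -2.76 (adjusted p = 0.0111). Without any 1 of the 4 mutant libraries it passed the filter through its wild-type reads alone and missed the threshold (adjusted p = 0.139 to 0.173, edgeR).

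Matn4 (ENSMUSG00000016995, chromosome 2, 164215129 to 164230660, minus strand) encodes a matrilin, an adaptor of the cartilage matrix, and overlaps Rbpjl on the other strand. It had 3, 4, 3 and 7 reads in mutant and 2, 2, 3 and 1 in wild type. These 17 and 8 reads gave a scaled ratio of 1.87, with an exact 95% counting interval of 0.765 to 5.01, so a difference was not detectable at this depth.

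Levels of different genes were compared per length, as CPM per kilobase of summed exon. In wild type the means were 132.4 ± 29.9 for Hapln1, 51.4 ± 8.01 for Col2a1 and 47.7 ± 13.2 for Sox9 (SD, n = 4). Libraries of Hapln1 lay above those of Col2a1, while Col2a1 and Sox9 overlapped and both lay above Sox6 at 12.5 ± 2.25. Sox6, Col9a1, Col11a1 and Sox5 overlapped with their neighbours in the order, and all lay above Acan, Col11a2 and Matn4, which were at 0.299, 0.127 and 0.0502. In mutant, Hapln1 was at 207.8 and Sox9 at 58.2, and Col2a1, at 15.4 ± 1.46, lay under every library of Sox9 and overlapped with Sox6 at 16.2. Col2a1 stood above 91.1% of tested genes in wild type and above 70.2% in mutant, while Sox9 stood above 90.3% and 92.4% and Hapln1 above 96.8% and 98.2%.

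Among the 4 collagen members, the makeup by level per length differed between the groups. Col2a1 made up 87.8%, 93.5%, 78.3% and 74.5% of their summed level in wild-type replicates 1 to 4 and 60.7%, 47.6%, 61.03% and 68.9% in the mutant replicates, with no overlap. The means were 83.5% ± 8.71 and 59.6% ± 8.83 (SD, n = 4). The share of Col11a1 was 5.91% ± 1.65 in wild type and 16.6% ± 1.05 in mutant, and that of Col9a1 was 10.4% ± 7.59 and 23.1% ± 8.06. A share rises when another falls, so these values restate the level of Col2a1 beside the others and show no change of Col9a1 or Col11a1.

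Col2a1 reads were also set against the reads of its known activators in the same library, where the scaling of libraries cancels. There were 0.439, 0.391, 0.426 and 0.456 Col2a1 reads per Sox9 read in mutant and 1.48, 3.08, 1.16 and 1.88 in wild type, in the order of replicates. The mutant ratios were close to each other, and the wild-type ratios were all higher and spread more widely, with the largest in wild-type library 2, where Sox9 was low. Per Sox6 read the ratios were 0.688 to 0.828 in mutant and 2.33 to 4.62 in wild type, and per Hapln1 read 0.102 to 0.111 and 0.402 to 0.790. Per Sox5 read they were 1.64 to 1.81 and 4.80 to 16.0, and per Col11a1 read 1.82 to 2.82 and 6.68 to 16.0. Only against Col9a1, of the 6 genes used, did the groups overlap, at 1.85 to 6.45 and 5.01 to 52.3. A ratio shows unequal change and not that either gene stayed at its level.

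**Figure D3:**
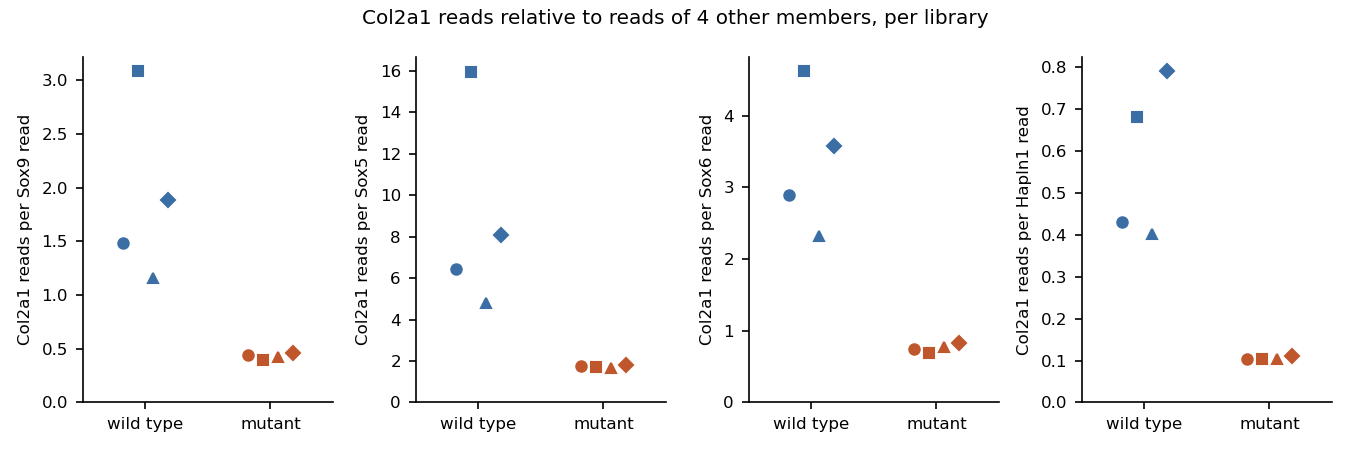
Col2a1 reads per read of other members in the same library, on linear axes from 0, with 1 point for each of the 4 libraries of a group. For Sox9 the mutant points lie between 0.391 and 0.456 and the wild-type points between 1.16 and 3.08.

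Within groups the 3 SOX genes deviated in similar ways, and Col2a1 deviated in others. Deviations of log2 CPM from the group mean were taken over the 8 libraries, which share tissue makeup and scaling, and the correlations describe these libraries. With Sox9, Pearson's r was 0.98 for Sox5 (Spearman's rho 0.81) and 0.96 for Sox6 (rho 0.88). Without wild-type library 2 and mutant library 4, the farthest from the median of Sox9, r was 0.88 and 0.75. Deviations stayed those from the mean of the whole group, so an offset between groups enters each r with libraries left out. Leaving out the extremes of Sox9 also narrows its range, so the values without both do not show what an r rests on. Sox5 and Sox6 had an r of 0.91 with each other (rho 0.64). It was 0.43 without both libraries, 0.83 without wild-type library 2 alone and 0.96 without mutant library 4 alone. Among 13646 genes ranked by this likeness to Sox9, Sox5 came 4th and Sox6 50th. Col2a1 had an r of -0.10 (rho -0.29) with Sox9 and -0.57 without both libraries. For Col11a1 the r of 0.81 with Sox9 (rho 0.69) was -0.04 without both. It was 0.64 without wild-type library 2 alone and 0.78 without mutant library 4 alone. In the same order, the r of 0.76 for Col9a1 was -0.27, 0.49 and 0.72. That of 0.73 for Col11a2 was -0.69, 0.71 and 0.76. Col9a1 and Col11a1 varied together, with an r of 0.97 (rho 0.95) and 0.97 without wild-type libraries 2 and 4.

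Wild-type library 2 and mutant library 4 deviated in several of these genes. In wild-type library 2 the deviation from the group mean was -0.91 for Sox5, -0.70 for Sox9, -0.42 for Sox6, -0.59 for Col11a1 and -1.80 for Col9a1, against 0.09 for Col2a1. In mutant library 4 it was -0.27, -0.29, -0.33, -0.40 and -1.07 for the same genes and -0.20 for Col2a1. Each was the highest of its group in chamber genes, although wild-type library 1 was above mutant library 4. The 12 tested markers of cushion mesenchyme, a list that holds none of the 10 genes, had summed levels of 4361 CPM in wild-type library 2 and 4940 CPM in mutant library 4, the lowest of their groups, within ranges of 4361 to 6693 CPM in wild type and 4940 to 6420 CPM in mutant. Wild-type library 4 was close to wild-type library 2 in this sum, at 4485 CPM, while its deviation was 0.13 for Sox9 and 0.19 for Sox5. Most of the sum was Vcan, at 3032 to 4814 CPM over the 8 libraries. The part of these markers in the variation of the SOX genes was not tested. By the same measure the 4 rows closest to Col2a1 among 13646 genes were 3 rows named Gm5796 (r = 0.97 to 0.99) and AC121599.1 (r = 0.96), over 8 libraries. None of these 4 was called by edgeR, and the nearest member, Col11a2, ranked 3309 with an r of 0.26.

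**Figure D4:**
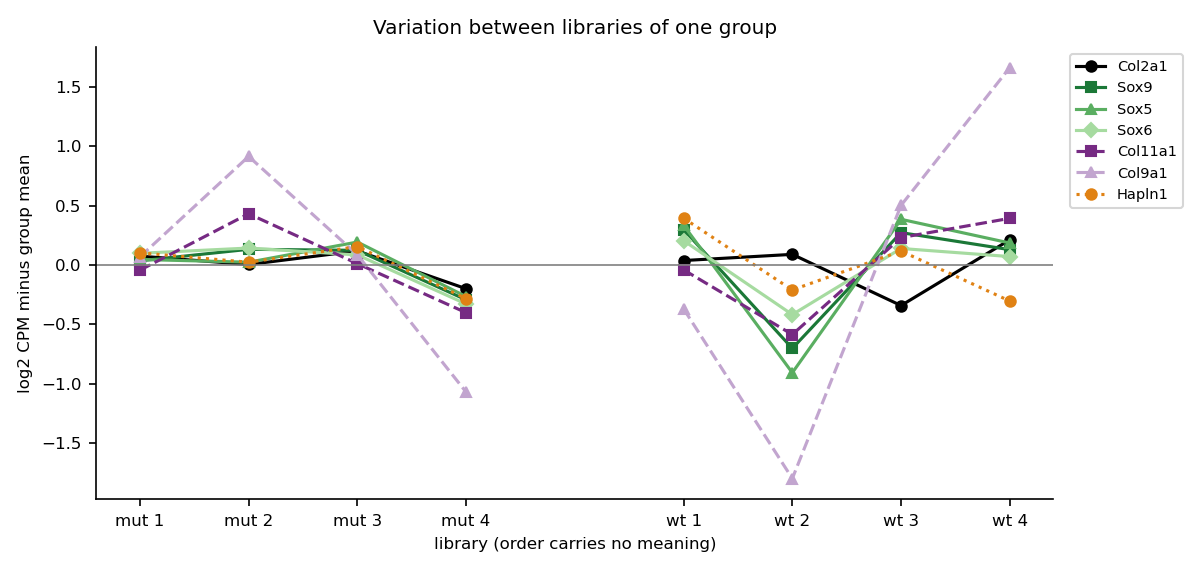
Deviation of log2 CPM from the mean of its group, for each library and several members, where the order of libraries within a group carries no meaning. Wild-type library 2 is low for Sox5 (-0.91) and Sox9 (-0.70) and near 0 for Col2a1 (0.09).

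The genes around these members in cartilage biology were looked at in 7 lists, described by their counts. Of 8 tested cartilage collagens 0 rose and 1 fell, Col2a1, with a list median of 0.26 on the log2 scale. Col9a2 and Col9a3, the partner chains of Col9a1, had values of -0.65 (adjusted p = 0.432, edgeR) and 0.30, and Col27a1 and Col10a1 had values of 0.32 and 0.23. Of 12 tested cartilage proteoglycans and small matrix proteins 0 were called by edgeR (median 0.13) and 3 had an unadjusted p under 0.05, while DESeq2 called 2 of the list, Hapln1 and Acan. Versican (Vcan), the abundant cushion proteoglycan, had a value of 0.09 (adjusted p = 0.885, edgeR), and perlecan (Hspg2) -0.06 (adjusted p = 0.873, edgeR).

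Of 12 tested SOX family genes 0 were called by edgeR, DESeq2 or limma-voom and 3 had an unadjusted p under 0.05 (median 0.26). Sox4 and Sox11, the abundant SOXC members, stood at 0.32 and -0.14 and did not pass. Of 14 tested chondrogenic regulators 0 were called by any of the 3 tools and 3 had an unadjusted p under 0.05 (median 0.13), and Arid5b, a partner of SOX9, stood at 0.12 (adjusted p = 0.836, edgeR). Only 3 of 11 genes of hypertrophic cartilage and bone had enough reads, 0 were called by any of the 3 tools, and 1 had an unadjusted p under 0.05. They were Pth1r at -0.19, Col10a1 at 0.23 and Runx2 at -0.77 (adjusted p = 0.573, 0.846 and 0.414, edgeR).

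Among enzymes that modify or cut the matrix, edgeR called 2 genes, Chst11 and Adamts1. DESeq2 called Adamts3, which cuts procollagen (edgeR value -0.97, adjusted p = 0.0684), and Htra1, a serine protease (edgeR value 0.90, adjusted p = 0.124), beside them. Chst11, which adds sulphate to chondroitin chains, was at 33.9, 37.2, 34.5 and 37.4 CPM in mutant and 27.3, 16.5, 21.3 and 18.9 CPM in wild type, with no overlap. It rose, with a log2 fold change of 0.76 ± 0.146 (SE; edgeR adjusted p = 0.0204), 1 of 37 tested genes of collagen and proteoglycan assembly, where 8 had an unadjusted p under 0.05 and the median was 0.16. The most abundant of that list were Serpinh1 and P4hb, which fold collagen, and Creb3l2, a regulator of matrix secretion, with values of 0.18, 0.16 and 0.32 that did not pass. Adamts1, a protease that cuts versican and aggrecan, was at 258.1, 252.1, 176.4 and 169.2 CPM in mutant and 115.7, 100.1, 125.1 and 117.2 CPM in wild type. All its mutant libraries lay above all wild-type libraries, and it rose by 0.90 ± 0.144 (SE; adjusted p = 0.00802, edgeR), 1 of 11 tested matrix proteases (median 0.18). Adamts9 and Timp3, also abundant, had values of 0.18 and 0.29 that did not pass.

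**Figure D5:**
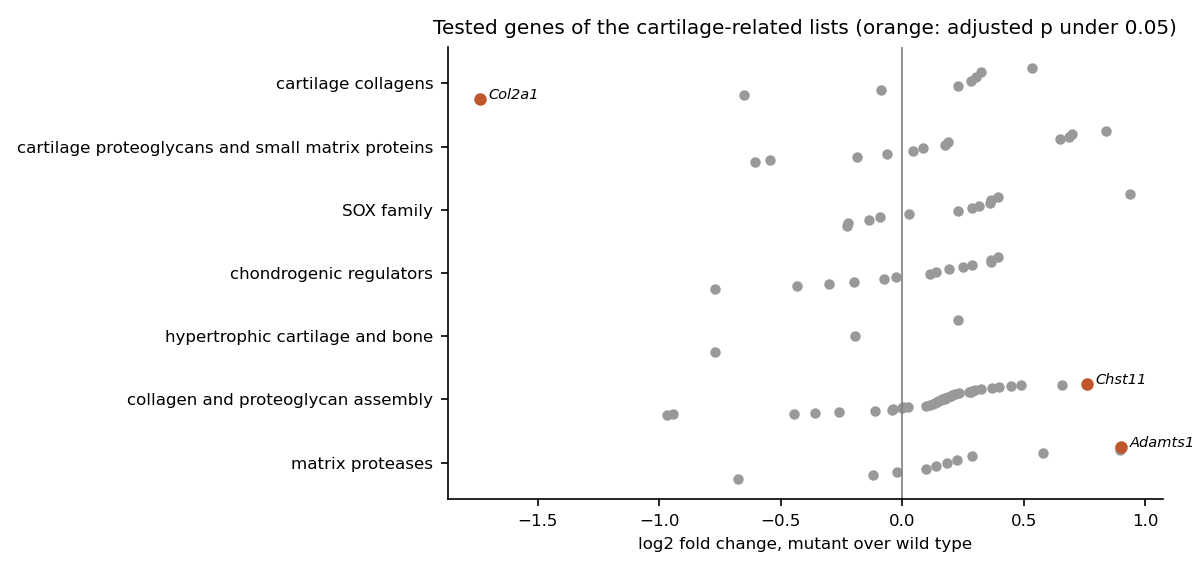
Log2 fold changes of the tested genes of the 7 cartilage-related lists, 1 point per gene, with called genes in orange and 0 marked by a line. Col2a1 (-1.74), Chst11 (0.76) and Adamts1 (0.90) are the genes called by edgeR.

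For other tissues that carry cartilage-type transcripts, several listed genes were at or near the floor and others were well above it. Whether such tissue was in the samples was not tested. Of the notochord list, T, Noto and Foxj1 had at most 3 reads in every library, while Shh and Foxa2 had 68 and 7 reads in wild-type library 4 and 0 to 2 elsewhere. Of the sclerotome list, Pax1 and Uncx had at most 3 reads in every library, while Pax9 and Nkx3-2 had 32 and 12 in wild-type library 4 and 0 to 10 elsewhere. The 1 tested notochord gene was Krt19 (-0.27), at 24.8 to 42.4 CPM over the 8 libraries. The 2 tested sclerotome genes were Meox1, the most abundant, at -0.18 (13.9 to 89.8 CPM), and Tbx18, also an epicardium marker, at 0.49 (16.6 to 41.6 CPM). None of them was called by edgeR, DESeq2 or limma-voom, and Tbx18 had an unadjusted p under 0.05 by edgeR. Of 10 differentiated chondrocyte markers, 4 were tested and 0 called (1 at an unadjusted p under 0.05, and 0 by DESeq2 or limma-voom), with a summed level of 31.0 to 40.6 CPM in mutant and 27.9 to 39.6 CPM in wild type. Matn1, which marks mature cartilage, had 0 reads in all 8 libraries, and Comp, Epyc and Ucma had 14, 10 and 5 reads over all 8. All 6 somitic and pharyngeal muscle markers had at most 3 reads in each library. Of 8 cardiomyocyte markers 7 had values below 0 (median -0.32) and 3 had no overlap between groups. Of these, edgeR called 2 lower, Myh7 at -0.48 and Myl7 at -0.97, while Ttn, the most abundant, at -0.43 (adjusted p = 0.139, edgeR), was called by DESeq2. All 6 chamber markers had values below 0 (median -1.40). Myl3 fell, at -1.56 (adjusted p = 0.0325, edgeR), and Myl2, the most abundant, was at -0.68 and not called. Without wild-type library 4, 0 of the list were called. Without wild-type library 2 and mutant library 4, edgeR called 3 of the list, Myl3 among them, but those libraries were left out for their chamber levels.

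Of the 12 cushion mesenchyme markers 9 had values above 0, 6 had an unadjusted p under 0.05 and 4 had no overlap between groups. By edgeR 1 rose, Msx1, a homeobox factor, with a log2 fold change of 1.06 (edgeR adjusted p = 0.00597), and DESeq2 also called Twist1 (edgeR value 0.78). Without wild-type library 2 and mutant library 4, edgeR called 4 of the list. In endothelium and endocardium the receptor Tek rose by 0.74, and in epicardium the retinoic acid enzyme Aldh1a2 rose by 1.25, each 1 gene of its list. In endothelium 3 of 9 genes had an unadjusted p under 0.05 and 7 had values above 0. In epicardium all 6 genes had values above 0 (median 0.48), 4 had an unadjusted p under 0.05, 3 had no overlap and DESeq2 also called Tcf21 (edgeR value 0.70), while 0 were called by edgeR without wild-type library 2 and mutant library 4. Their most abundant genes, Cdh5 and Upk3b, had values of 0.10 and 0.47 and were not called. Smooth muscle, neural crest, pharyngeal arch and endoderm, erythroid and leukocyte lists had 0 genes called by edgeR, DESeq2 or limma-voom, and 3 of their 21 tested genes had an unadjusted p under 0.05. In the pharyngeal arch list Dlx2 and Prrx1 had values of -1.55 and -0.69 and Hand2, the most abundant, 0.22, and Prrx1 was called without wild-type library 2 and mutant library 4. In smooth muscle 4 of 5 genes had values above 0 (median 0.08), with Acta2, the most abundant, at -0.30. The medians were 0.05 in neural crest (Ets1 at 0.23), -0.31 in endoderm (Krt18 at -0.30), -0.40 in the erythroid list (Hba-x at -0.45) and -0.57 in leukocytes (Laptm5 at -0.98). Most endoderm markers were untested for low reads outside wild-type library 4. Whether the cell makeup moved with Col2a1 was not tested beyond these counts.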

How the data were processed

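The labels' protocols name a Qiagen mini kit for RNA from the 8 outflow tract samples and NuGEN for the libraries. The submitters' processing notes name TopHat2 2.0.4 and the mm9 build. How reads were assigned to genes, with or without strand and on which annotation, is not given in these sources. The authors deposited raw counts per gene and library as whole numbers, the summed exon length of each gene, and, per the file headers, an exon score (chi-square on exon counts) with the log2 ratio of the most changed exon. The scale of that score is not stated, and it was used for ranks only. The deposited FPKM and normalized log2 columns of the libraries were not used.

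The main test was that of edgeR 4.0.16 under R 4.3.3 (filterByExpr, TMM scaling, robust quasi-likelihood test, two-sided, Benjamini-Hochberg over 14757 genes, threshold 0.05), with the group alone in the design and group by lane as a second test. The standard error was the log2 fold change divided by the square root of F. DESeq2 1.42.0, limma-voom (limma 3.58.1) and other alternatives were run, 19 in all. Log2 CPM used a prior count of 2. Levels between genes used the deposited exon length. The procedure was tested on simulated data. Intervals on reads are exact at 95% and express counting error alone. No correction by molecular identifiers was made here, so reads copied from the same molecule would leave these intervals too narrow.

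The 10 genes, the 7 pathway lists and the 15 marker lists were chosen with earlier results of these data known. Genes named were the 10, the called and 3 most abundant genes of each pathway list, the called and most abundant genes of marker lists and the 5 genes most like Col2a1, of which 1 is not reported here. Others were named after their values were seen: marker genes with few reads, Adamts3, Htra1, Col9a2, Col27a1, Myh6, Tcf21, Tbx18, Twist1, Dlx2 and Prrx1. Tables used pandas 2.3.3 and scipy 1.17.1 under Python 3.11.15, and figures matplotlib 3.10.9. Sequences came from GENCODE transcripts on GRCm38, a build other than that of the files, so no coordinate of one was used with the other.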

Additional observations from a re-analysis of the deposited data

Results flagged for a closer look

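In each group of 4 libraries, each of the 8 tested members was searched for a library far from the other 3 by Dixon's test, 16 groups in all. A library stood apart in 4 of them, where chance gives about 5% of groups. The groups are not independent, since the SOX genes varied together. The share over all tested genes is not given here, so no excess is read from this count. Sox5 and Sox9 were low in wild-type library 2, with a log2 CPM of 4.51 for Sox5, where the others lay at 5.60 to 5.80, and of 6.87 for Sox9, where the others lay at 7.70 to 7.87. Col11a2 and Sox6 were low in mutant library 4, with a log2 CPM of -0.67 for Col11a2, where the others lay at 0.68 to 0.92, and of 6.75 for Sox6, where the others lay at 7.16 to 7.22. Each of these libraries was the highest of its group in chamber genes, and the part of that in these values was not tested.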

How the results depend on the processing

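Col2a1 was called lower in all 19 alternatives, with values from -1.84 to -1.65 and adjusted p up to 0.00759. The count of members called lower was 2 in place of 1 with no filter on low counts, DESeq2 and lane 2 alone. It was also 2 without the library of each group highest in chamber genes. On leaving out each library it was 1 to 2 (2 without wild-type library 2). The second was Acan in each case. Acan was not tested in the main fit, nor without wild-type library 1, 3 or 4. In edgeR fits on fewer libraries it passed the filter only through its wild-type reads, so those calls add no support. The count called higher was 1 in place of 0 with library size alone, no filter and DESeq2, and 0 to 1 on leaving out each library (1 without mutant library 4 or wild-type library 1), each time Hapln1. Genes called in the whole table were 222, and 426 with DESeq2, 836 in lane 1 alone, 119 in lane 2 alone, 95 on leaving out both libraries that lack Y-linked reads, and 110 to 231 on leaving out each library (110 to 145 without mutant library 1, 2 or 3 or wild-type library 1). The 2 libraries that lack Y-linked reads were mutant library 1 and wild-type library 4. The causes were not tested.

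The correlations of same-numbered deviations were -0.05, -0.21, 0.22 and -0.29, which shows no steady pairing by replicate number. They cannot exclude pairing, since other differences between libraries enter them as well. The highest of all, 0.40, was between mutant library 4 and wild-type library 2. With the replicate block 76 genes were called, and Col2a1 was at -1.73 (adjusted p = 0.00759, edgeR).

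The sign of Col9a1 turned to 0.25 with limma-voom, 0.19 with the replicate block, 0.14 with lane as a covariate, 1.69 in lane 1 alone and 0.72 on leaving out the libraries that lack Y-linked reads, and ran from -0.47 to 0.69 on leaving out each library (0.17 without mutant library 4 and 0.69 without wild-type library 4). In lane 2 alone Col11a1 turned to -0.21 and Col11a2 to -0.39. The cause was not tested. Sox5, Sox6 and Sox9 stayed above 0 and uncalled in all 19 alternatives, but their values were not steady. From 0.40, 0.37 and 0.29 they shrank to 0.17, 0.24 and 0.10 without wild-type library 2. Lane 1 alone gave 0.64, 0.56 and 0.52, and lane 2 alone 0.16, 0.15 and 0.05. Wild-type levels per length moved by less than 1 SD with library size alone. The ratio of Acan reads without wild-type library 4, an alternative chosen after seeing the data, was 5.49 in place of 6.53. Depth limits Acan, Matn4 and Col11a2.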
